A study of Mus musculus with 4 samples.

Results

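The genes described here encode the enzymes and remodelers that write, erase and read marks on chromatin. They were taken as every gene model whose symbol began with KDM, KMT, HDAC, SMARC, ARID, SETD, DNMT, EHMT, EZH, CHD or TET and a number or letter of that family, or was SUZ12 or an old MLL name. This rule used symbols only and no measured value. It took 82 of the 38586 gene models, of which 71 were protein-coding genes and 11 were antisense or intronic RNAs or pseudogenes. Of the 82, 62 had enough reads to be tested, 9 had reads but too few, and 11 had no read in any library. All 62 that were tested were protein-coding genes. Other members of these families, among them HDAC6, HDAC8, HDAC10, SMARCA2, SMARCB1, KDM4C, KDM5C and CHD6, were not analysed here, so the counts by class do not cover whole families.

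Messenger RNA was compared between 2 subsets of CD4+ T cells that had been sorted from the spleens of resting mice. RbLoTem cells were effector/memory cells sorted as CD62L- CD44+ FoxP3- CD45RbLo, and RbHiTn cells were naive cells sorted as CD62L+ CD44- FoxP3- CD45RbHi. The mice of both subsets were of the strain C57BL/6-Foxp3tm1Flv/J, in which a fluorescent reporter marks FoxP3-expressing cells, and no source used here gives their age. All cells had spent 72 h in wells coated with 2 ug of anti-CD3 antibody, a stimulus through the T cell receptor, so the comparison is between activated cells and holds no resting sample. Each subset had 2 libraries, 1 of which carries the suffix o in its label, a suffix that the sources used here do not explain. No source states whether the pair of libraries in a subset had different cultures or mice behind it, and each p-value therefore reflects nothing more than how far these libraries spread, possibly for technical reasons.

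Chromatin enzymes set how readily a gene can be transcribed by adding or removing methyl and acetyl groups on histone tails, by methylating or oxidising cytosine in DNA, and by sliding or evicting nucleosomes with the energy of ATP. In CD4+ T cells these enzymes are known for the opening and closing of cytokine loci as a naive cell becomes an effector or memory cell. Trimethylation of lysine 4 of histone H3 (H3K4) is known at active promoters, and trimethylation of lysine 27 (H3K27) and of lysine 9 (H3K9) at silenced genes.

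The files list mouse reads on gene models with human symbols, so levels are given by those symbols. On such a model 0 reads say nothing of whether the mouse gene was transcribed, and few reads do not show a low level. Words such as abundant and scarce, and shares of a gene in a pair, refer to reads or RPKM on these models only. How far reads were lost on each model was not tested, so levels of different genes are not comparable as levels of mouse RNA. Levels are in RPKM, that is exon reads scaled to 1 kb of exon and to 1000000 gene reads, and values are given for the library without the suffix first and the library with the suffix o second, with RbHiTn before RbLoTem wherever a pair of values stands against another. Reads in exons numbered 5858942 and 3795660 in the RbHiTn libraries and 4258720 and 5873287 in the RbLoTem libraries. The chromatin genes together took 16646 and 17375 of every 1000000 exon reads in RbHiTn and 15396 and 15450 in RbLoTem. CHD3 and CHD4 made up a large part of this gap, since without them the sums were 13778 and 14341 in RbHiTn and 13300.5 and 13318 in RbLoTem. Between 98.0% and 98.2% of the members' reads matched a single place. In bulk RNA, fewer cells of a type and less RNA per cell cannot be told apart.

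Chromatin genes were lower in RbLoTem more often than they were higher. Changes are given as the log2 fold change of RbLoTem over RbHiTn with its standard error (SE) after ±, in parentheses where a sentence gives RPKM values, and each adjusted p is from edgeR unless another tool is named. Of the 62 tested members, 28 (45.2%) were lower and 13 (21.0%) were higher in edgeR's quasi-likelihood test at a Benjamini-Hochberg adjusted p under 0.05, and 21 were not called. Among all 6538 tested models, 23.6% were lower and 24.3% were higher. The share of members that was lower therefore stood above the background, and the share that was higher stood close to it. DESeq2 called fewer of both, with 21 members (33.9%) lower against 15.2% of all models and 9 (14.5%) higher against 17.1%. Without the RbHiTn library that lacks the suffix, 8 members were higher and 29 lower. The members had more reads than most models, with a median of 3358.5 reads over the 4 libraries against 620.5 for all tested models, and a change of a given size is called more readily at higher counts. The median log2 fold change was -0.14 for the members and -0.01 for all tested models. By class the median ran from -0.59 for 2 DNA methyltransferases and -0.32 for 8 H3K4 methyltransferases to 0.29 for 6 histone deacetylases. It was 0.33 for the 4 ARID proteins outside SWI/SNF, of which 2 were higher and 2 were lower. These medians rest on few genes each. The counts of each class and marker list below are to be read beside the 23.6% lower and 24.3% higher among all tested models. No class was tested against these shares, and the higher read counts of the members bear on every class count.

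Most of these changes were small. Of the 41 called members, 27 changed by less than 1.5-fold, 19 of them lower and 8 higher. At 1.5-fold or more, 9 members (14.5%) were lower against 12.3% of all models, and 5 (8.06%) were higher against 11.7%, so that at this size the members stood near the background in both directions. The libraries of the subsets did not overlap for any of the 41 called members. Several members that were not called, among them SUZ12, HDAC3 and SETD1A, did not overlap either. The share over all tested models is not given, so the lack of overlap adds no support to the calls. The 9 larger decreases were CHD3, KDM6B, DNMT3A, KDM5B, KMT2E, HDAC7, SETD2, ARID1B and SETD1B, and the 5 larger increases were CHD7, ARID5A, ARID3B, CHD9 and HDAC4.

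**Figure D1:**
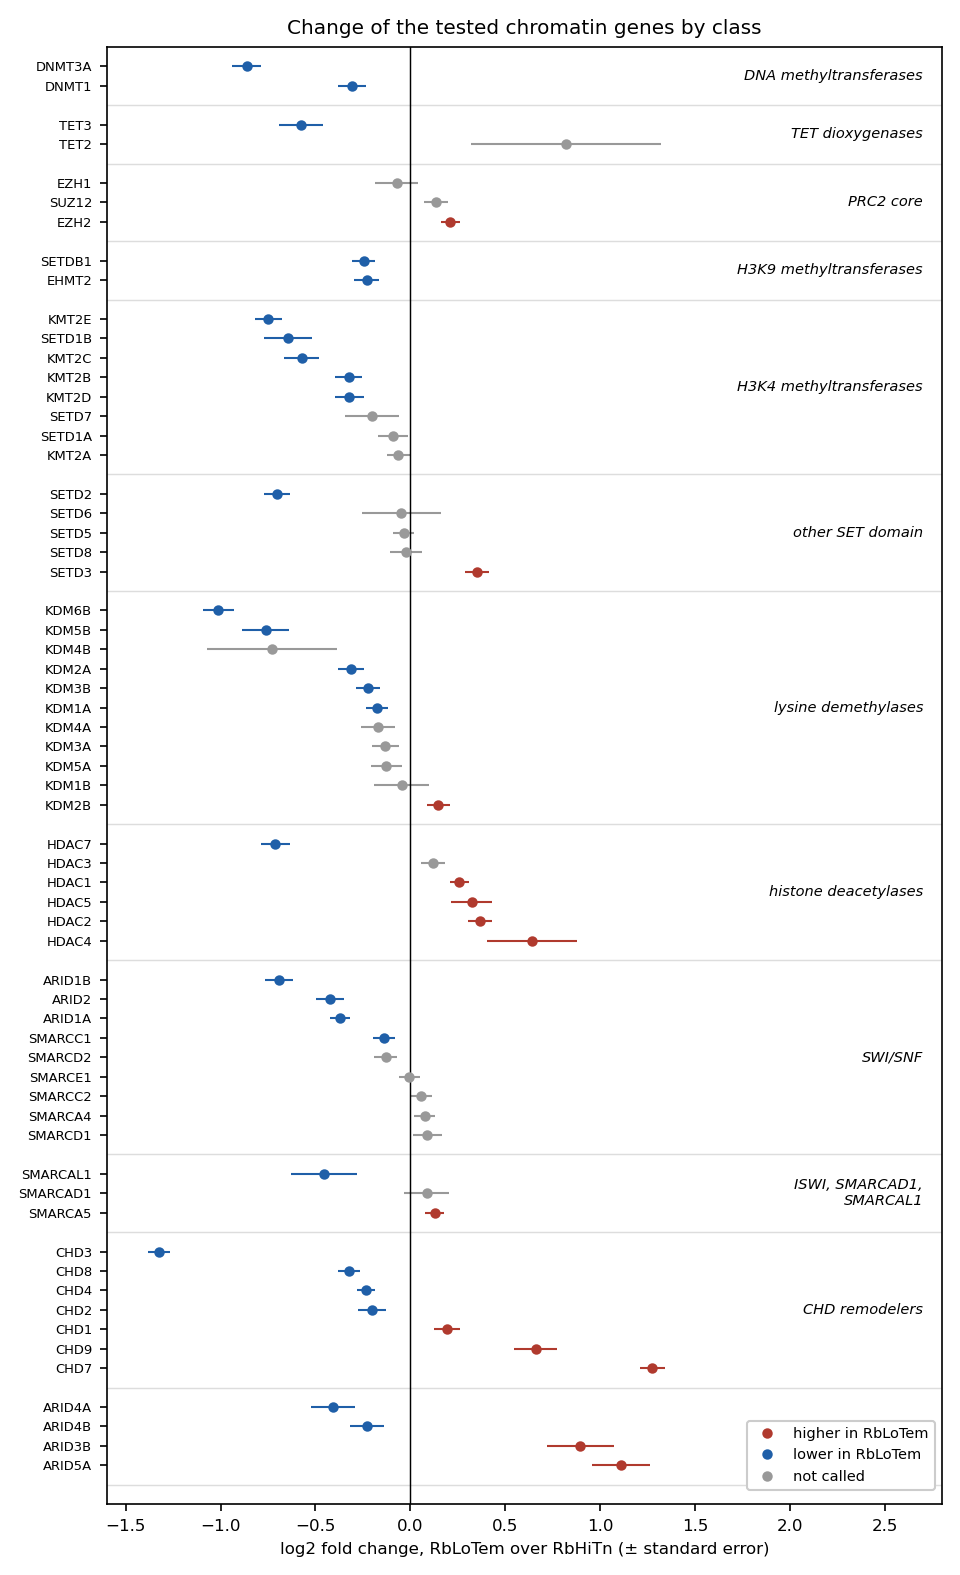
Log2 fold change of each of the 62 tested members, RbLoTem over RbHiTn, with the standard error as a bar, grouped by what the protein does. Of the members 28 were called lower (blue), 13 higher (red) and 21 were not called (grey), and the range ran from -1.32 for CHD3 to 1.27 for CHD7.

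**Figure D2:**
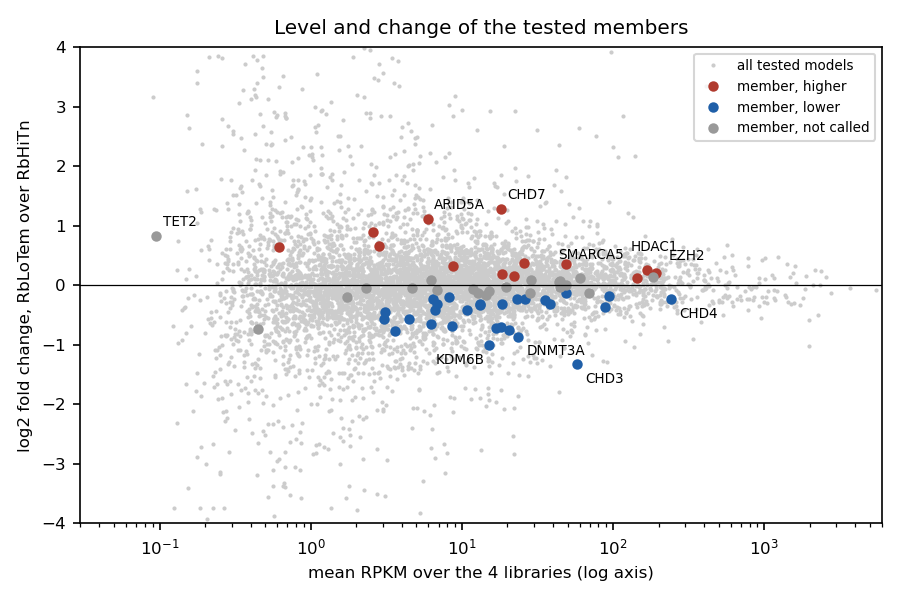
Mean RPKM over the 4 libraries on a log axis against the log2 fold change, for all 6538 tested models (small grey points) and the 62 members (large points). The members lay toward the higher levels, CHD4 at the highest, and 104 of the other models lie outside the axes.

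The chromodomain helicases (CHD) moved apart from each other. All 7 tested members were called in edgeR, 4 lower and 3 higher in RbLoTem, where all tested models had 23.6% lower and 24.3% higher. DESeq2 called 3 lower and 2 higher, and did not call CHD2 (adjusted p 0.157) or CHD1 (adjusted p 0.116). CHD3 and CHD4 are the ATPases of the NuRD complex, which joins nucleosome remodeling to histone deacetylation. CHD3 had an RPKM of 78.7 and 86.9 in RbHiTn and 31.8 and 33.8 in RbLoTem. These libraries were far apart, at a log2 fold change of -1.32 ± 0.058 (SE) and an adjusted p of 1.07e-18, and this 2.50-fold decrease was the largest of any tested member. CHD4, the most abundant member by RPKM, had 254 and 267 in RbHiTn and 219 and 221 in RbLoTem, a smaller decrease with a log2 fold change of -0.23 ± 0.046 and an adjusted p of 7.22e-05. More than 97% of the reads of each were unique to its own model.

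CHD7, a remodeler known to bind enhancers and mutated in human CHARGE syndrome, went the other way. Its RPKM was 10.2 and 11.2 in RbHiTn and 24.6 and 26.6 in RbLoTem, with a log2 fold change of 1.27 ± 0.067 and an adjusted p of 1.09e-16. The 2.42-fold increase was the largest among the tested members. CHD9, a less studied relative of CHD7, rose from 2.09 and 2.34 to 3.70 and 3.26 (0.66 ± 0.11, adjusted p 1.26e-05). CHD8, known to restrain Wnt target genes, was lower by 0.32 on the log2 scale and the change held in all 12 alternative analyses. The smallest changes of the family were those of CHD2 (-0.20 ± 0.073) and CHD1 (0.19 ± 0.069), the latter a protein that binds methylated H3K4. The CHD1 call was lost without either RbHiTn library or without the RbLoTem library that lacks the suffix, at an adjusted p between 0.0685 and 0.129, and the CHD2 call without the RbHiTn library with the suffix o or that same RbLoTem library, at 0.224 and 0.193.

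**Figure D3:**
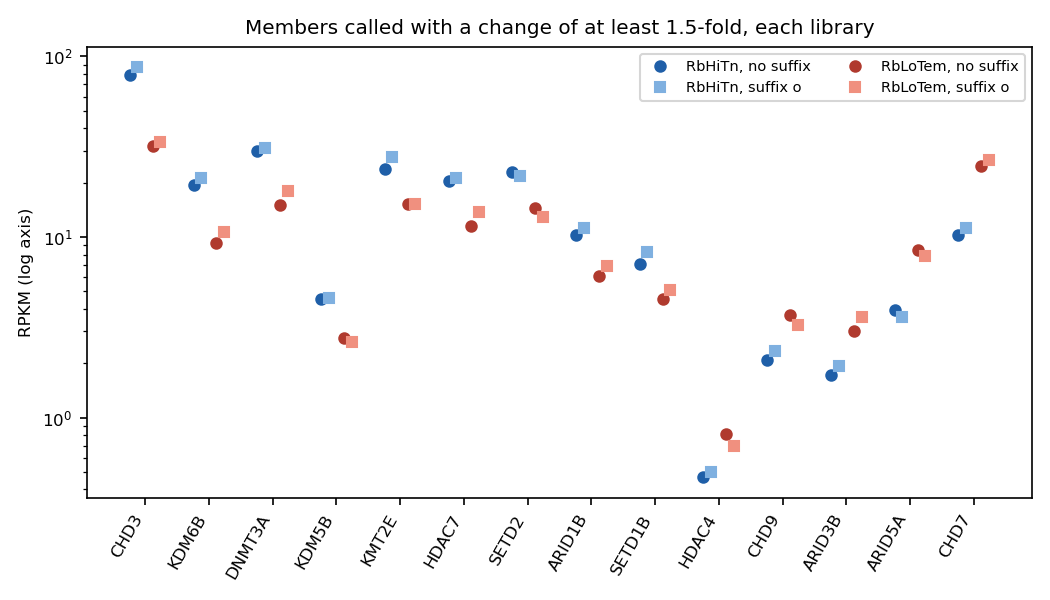
RPKM on a log axis in each of the 4 libraries for the 14 members called with a change of at least 1.5-fold (blue RbHiTn, red RbLoTem, squares for the suffix o). For every gene shown the points of the subsets do not overlap, which adds no support to the calls, and the gap was widest for CHD3 and CHD7.

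The SWI/SNF complexes use the ATPase SMARCA4 (BRG1) or SMARCA2 to move nucleosomes and differ in the ARID subunits that contact DNA. Of 9 tested members, 4 were lower and 0 were higher, against 23.6% and 24.3% of all tested models, and 3 of the 4 were ARID subunits. ARID1A and ARID1B are alternative subunits of the BAF form. ARID1B had an RPKM of 10.2 and 11.2 in RbHiTn and 6.12 and 6.95 in RbLoTem (-0.69 ± 0.076, adjusted p 3.64e-09). ARID1A, with a far higher RPKM on its model, had 96.5 and 105 against 74.5 and 80.1 (-0.37 ± 0.052, adjusted p 5.28e-07). Both subunits were thus lower in each RbLoTem library than in each RbHiTn library. ARID2, the subunit that defines the PBAF form, was lower as well, with 12.3 and 12.4 against 9.46 and 8.87 (-0.42 ± 0.074, adjusted p 1.41e-05).

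The catalytic and core subunits of SWI/SNF varied less. SMARCA4 had an RPKM of 44.5 and 42.3 in RbHiTn and 44.2 and 46.9 in RbLoTem, which overlap, and its log2 fold change of 0.08 ± 0.056 was not called (adjusted p 0.271). SMARCD2, with 72.5 and 73.3 against 65.1 and 67.2, did not overlap but was not called either (-0.13 ± 0.061, adjusted p 0.0756), although it was called lower with library sizes alone (-0.15) and on unique reads (-0.14). SMARCC2, SMARCD1 and SMARCE1, also structural subunits, had log2 fold changes of 0.05, 0.09 and -0.005 and were not called. SMARCC1, a scaffold subunit, was called lower at -0.14 ± 0.057 with an adjusted p of 0.0453, but the call held in 3 of 12 alternatives only. It was lost without the RbHiTn library with the suffix o, where the log2 fold change was -0.09, and without either RbLoTem library, at an adjusted p between 0.136 and 0.362.

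Outside SWI/SNF, SMARCA5 is the ATPase of the ISWI complexes, which space nucleosomes evenly. Its RPKM of 136 and 139.5 in RbHiTn and 155 and 144 in RbLoTem made it one of the more abundant members. The increase was small, at 0.13 ± 0.049 and an adjusted p of 0.0309, and the call held in 5 of 12 alternatives. It was lost without either RbHiTn library, and without the RbLoTem library that lacks the suffix, where the log2 fold change was 0.08, at an adjusted p between 0.0599 and 0.281. SMARCAD1, known for keeping heterochromatin through replication, had 5.93 and 6.25 against 6.88 and 6.00, which overlap, and was not called. SMARCAL1, which rewinds DNA at stalled replication forks, was lower at -0.45 ± 0.17 and an adjusted p of 0.0307. That call held in 7 of 12 alternatives and was lost in DESeq2, at an adjusted p of 0.266. It was also lost without the RbHiTn or the RbLoTem library with the suffix o, where the log2 fold changes were -0.35 and -0.38.

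The enzymes that methylate DNA were both lower in RbLoTem. DNMT3A, which methylates cytosines anew, had an RPKM of 29.9 and 31.2 in RbHiTn and 15.1 and 18.1 in RbLoTem, a 1.82-fold decrease (-0.86 ± 0.075, adjusted p 2.48e-11). DNMT1, which copies methylation onto the new strand after replication, had 15.1 and 14.2 against 12.1 and 11.6, a smaller decrease (-0.31 ± 0.074, adjusted p 7.52e-04). Both calls held in all 12 alternatives. DNMT3B was not analysed here.

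The TET dioxygenases, which oxidise methylated cytosine, had a lower RPKM on these models than the DNA methyltransferases. TET3 had 4.72 and 5.98 in RbHiTn and 3.40 and 3.62 in RbLoTem, a decrease of 0.58 on the log2 scale (SE 0.12, adjusted p 1.09e-04, edgeR). TET2 had only 8 and 4 reads in RbHiTn and 10 and 12 in RbLoTem. Per exon read the ratio of RbLoTem to RbHiTn was 1.75 with a 95% interval from 0.828 to 3.87 for counting error only. No difference in TET2 was detected with so few reads on its model. The fitted log2 fold change of 0.82 ± 0.50 had an adjusted p of 0.183. TET1 was not analysed here.

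Polycomb repressive complex 2 (PRC2) trimethylates H3K27 through EZH2 or its paralog EZH1, held in an active form by SUZ12 and EED. EZH2 was among the most abundant members, with an RPKM of 175 and 181 in RbHiTn and 209 and 200.4 in RbLoTem. The increase was small but lay outside the spread of the libraries (0.21 ± 0.050, adjusted p 6.67e-04) and was called in all 12 alternatives. SUZ12 had 169.01 and 182 against 194 and 189, which did not overlap, but its change of 0.14 ± 0.062 was not called (adjusted p 0.0704). EZH1 had 6.60 and 7.59 against 7.14 and 6.24, overlapping between the subsets, and was not called (adjusted p 0.634). EED, listed among the partner genes and not among the 82 members, rose from an RPKM of 38.1 and 39.8 to 55.0 and 50.6. Its log2 fold change was 0.45 ± 0.060, with an adjusted p of 2.29e-07 in edgeR. Other polycomb partners, given further below, were called in both directions.

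An enzyme that removes the PRC2 mark was lower in RbLoTem. KDM6B (JMJD3), an H3K27 demethylase known to be induced by inflammatory signals in macrophages, had 19.5 and 21.3 in RbHiTn and 9.32 and 10.6 in RbLoTem. Its 2.02-fold decrease (-1.01 ± 0.082, adjusted p 4.98e-12) was the next largest after CHD3 and held in all 12 alternatives. The related KDM6A was not analysed here.

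EZH2 and DNMT1 are known targets of E2F factors, which drive transcription as cells enter the S phase. RefSeq promoters of GRCm38.p6, from 250 bases before to 50 after the start of transcription, were found for 45 of the 62 tested members. The E2F motif, searched as TTTCCCGC or TTTGGCGC on both strands, was found in 5 of the 45, against 1.80% of 27025 genes with a promoter. These 5 windows are printed 5′ to 3′ on the gene's own strand with the motif in capitals, since they hold the members whose motif can be set beside a measured change.
EZH2: ggttgctgcgTTTGGCGCtcggtccggt
DNMT1: cggggcagcgTTTGGCGCgggctgtgc
SUZ12: gacccctcatTTTCCCGCgaattcagtt
ARID1A: ccctccctccTTTCCCGCcccctccccc
SMARCD1: tcagcacgccTTTCCCGCtagtcgcccc

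The EZH2 window lies on the minus strand at chr6:47595010-47595037, with the motif beginning 4 bases into the transcript, counting the first transcribed base as 1. The DNMT1 window lies on the minus strand at chr9:20952574-20952600, with the motif beginning at base 34. The other motifs lie before the start, on the plus strand at chr11:79992877-79992904 for SUZ12 (-219), on the minus strand at chr4:133754023-133754050 for ARID1A (-55) and on the plus strand at chr15:99702146-99702173 for SMARCD1 (-131). EZH2 and DNMT1 carry the same TTTGGCGC and moved in opposite directions, as given above. Of the members with a promoter, the E2F motif was in 1 of 10 that were higher, 2 of 18 that were lower and 2 of 17 that were not called. The AP-1 motif TGANTCA was in 3 members (HDAC7, KDM3A and KDM4A) against 8.97% of all genes, and the ETS motif CCGGAAGT in 0 against 4.31%. A gene was counted where any of its promoters held the motif, as 1 of 3 promoters did for DNMT1, 1 of 2 for ARID1A, 1 of 4 for HDAC7 and 2 of 3 for KDM3A. A match is a description of these letters and not a site of binding.

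Of 8 tested methyltransferases of H3K4, 5 were lower in RbLoTem and 0 were higher, where all tested models had 23.6% lower and 24.3% higher. KMT2E, a member of the MLL family whose own catalytic activity is in doubt, had an RPKM of 24.0 and 27.8 in RbHiTn and 15.2 and 15.3 in RbLoTem (-0.75 ± 0.070, adjusted p 1.42e-10). SETD1B, a subunit of the complexes that place most trimethylated H3K4, had 7.07 and 8.31 against 4.52 and 5.11 (-0.64 ± 0.12, adjusted p 5.71e-05). The paralog SETD1A had 14.97 and 16.6 against 14.4 and 14.9, which do not overlap, but was not called (-0.09 ± 0.079, adjusted p 0.359). SETD1A and SETD1B therefore fell on different sides of the threshold, and the difference between them was not tested.

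KMT2C and KMT2D, which monomethylate H3K4 at enhancers, were both lower. KMT2C had 3.61 and 3.70 against 2.53 and 2.36 (-0.57 ± 0.093, adjusted p 4.95e-06), and KMT2D had 7.37 and 7.92 against 5.63 and 6.43 (-0.32 ± 0.075, adjusted p 6.11e-04). KMT2D was not called by limma on log2(RPKM + 0.1) or on log2(RPKM + 1). KMT2B, which acts at promoters, was lower at -0.33 ± 0.073 with an adjusted p of 3.88e-04. Its model is listed on 2 rows of the same name, whose reads were summed here, and with no unique read it could not be tested on unique reads. KMT2A (MLL1), the founding member of the family, had overlapping libraries and was not called (-0.06 ± 0.063, adjusted p 0.437). The least abundant of the class, SETD7, was not called either (-0.20 ± 0.14, adjusted p 0.251).

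The H3K4 demethylases were lower too where they were called. KDM5B, which removes trimethylation of H3K4, had 4.55 and 4.60 in RbHiTn and 2.75 and 2.62 in RbLoTem (-0.76 ± 0.12, adjusted p 5.46e-06). Its paralog KDM5A had 27.0 and 32.8 against 25.7 and 28.1, which overlap, and was not called, although without the RbHiTn library that lacks the suffix it was called lower at a log2 fold change of -0.27. KDM1A (LSD1), the flavin-dependent demethylase of H3K4, was the most abundant demethylase by RPKM, with 96.6 and 103 against 87.7 and 87.4. Its decrease was small (-0.18 ± 0.058, adjusted p 0.0127), and the call held in 9 of 12 alternatives. It was lost in DESeq2, at an adjusted p of 0.0759. It was also lost without the RbHiTn or the RbLoTem library with the suffix o, where the log2 fold changes were -0.14 and -0.17. KDM1B, its paralog, was not called at -0.05.

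Across all lysine demethylases 5 of 11 tested were lower and 1 was higher, against 23.6% and 24.3% of all tested models. Besides KDM6B, KDM5B and KDM1A, the decreases were those of KDM2A (-0.31 ± 0.067), which acts on dimethylated lysine 36 of histone H3, and KDM3B (-0.23 ± 0.063), which acts on H3K9. KDM2B, known for recruiting a polycomb complex to CpG islands, was higher at 0.15 ± 0.061 with an adjusted p of 0.0475, a call that held in 4 of 12 alternatives. It was lost without either RbHiTn library, and without the RbLoTem library with the suffix o, where the log2 fold change was 0.09, at an adjusted p between 0.0784 and 0.376. KDM4B had the widest error of the class, with 56 reads in RbHiTn and 35 in RbLoTem and a log2 fold change of -0.73 ± 0.34 that was not called (adjusted p 0.0784). KDM4B was called lower on unique reads (-0.74) and without the RbHiTn library that lacks the suffix (-1.11). KDM3A and KDM4A were not called, at -0.13 and -0.17.

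Both tested methyltransferases of H3K9 were lower by a small amount. SETDB1, known for silencing endogenous retroviruses, had an RPKM of 37.5 and 39.2 in RbHiTn and 31.7 and 32.4 in RbLoTem (-0.25 ± 0.061, adjusted p 0.00116). EHMT2 (G9a), which dimethylates H3K9 in euchromatin, had 24.8 and 25.6 against 21.2 and 21.4 (-0.23 ± 0.067, adjusted p 0.00466). The EHMT2 call was lost in DESeq2 at an adjusted p of 0.0615. EHMT1 was not analysed here.

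Other SET domain proteins changed in both directions. SETD2, the enzyme that trimethylates lysine 36 of histone H3 along transcribed genes, had 22.8 and 21.8 in RbHiTn and 14.5 and 12.9 in RbLoTem, a 1.63-fold decrease (-0.70 ± 0.071, adjusted p 6.18e-10). SETD3, now known as a histidine methyltransferase of actin, had 42.7 and 43.4 against 55.8 and 53.4, an increase (0.35 ± 0.063, adjusted p 2.54e-05). Both calls held in all 12 alternatives. SETD5 had 42.8 and 48.4 against 43.7 and 44.4, which overlap, and was not called. SETD8, which monomethylates lysine 20 of histone H4, and SETD6, which methylates the NF-kB subunit RelA, had log2 fold changes of -0.02 and -0.05 and were not called.

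Histone deacetylases were higher in RbLoTem in 4 of 6 tested members and lower in 1, but HDAC4 and HDAC5 were not called in DESeq2 or without the RbHiTn library that lacks the suffix, which left 2 higher (HDAC1 and HDAC2) and 1 lower in each. In the edgeR test 24.3% of all tested models were higher and 23.6% were lower. HDAC1 and HDAC2 are the class I enzymes at the core of the NuRD, Sin3 and CoREST complexes. HDAC1 had an RPKM of 152 and 153 in RbHiTn and 184 and 179 in RbLoTem (0.26 ± 0.051, adjusted p 8.49e-05). HDAC2 had 21.5 and 23.6 against 30.9 and 26.9 (0.37 ± 0.063, adjusted p 9.92e-06). Both paralogs were higher in each RbLoTem library, and both calls held in all 12 alternatives. HDAC3, the enzyme of the NCoR and SMRT corepressors, had 59.8 and 56.9 against 61.6 and 64.4, which did not overlap, but was not called (0.12 ± 0.061, adjusted p 0.109).

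The class IIa deacetylases, which leave the nucleus when phosphorylated after antigen receptor signals, split. HDAC7, known for its high level in thymocytes, had 20.5 and 21.2 in RbHiTn and 11.5 and 13.7 in RbLoTem, a 1.64-fold decrease (-0.71 ± 0.074, adjusted p 1.45e-09). Of its 4 RefSeq promoters, 1 holds the AP-1 motif, 23 bases into the transcript, on the minus strand at chr15:97814825-97814851 in GRCm38.p6, and is shown because HDAC7 is the only called member with that motif.
HDAC7: gctgagcagcTGAGTCActcagtagct

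HDAC5 rose from 7.48 and 8.16 to 9.40 and 9.92 (0.32 ± 0.11, adjusted p 0.0139), and the call was lost without the RbHiTn library that lacks the suffix or without the RbLoTem library with the suffix o, at an adjusted p of 0.164 and 0.0876. DESeq2 did not call HDAC5 or HDAC4, at an adjusted p of 0.135 and 0.229. HDAC4 was scarce, with 41 and 28 reads in RbHiTn and 51 and 60 in RbLoTem. Its log2 fold change of 0.64 ± 0.24 passed the test at an adjusted p of 0.0258, and the call held in 6 of 12 alternatives. With limma on log2(RPKM + 1) the change was 0.24 and was not called. The call was also lost without either RbHiTn library or without the RbLoTem library that lacks the suffix, at an adjusted p between 0.0534 and 0.135. HDAC9, too scarce to pass the filter, had 15 and 6 reads in RbHiTn and 1 and 2 in RbLoTem. The ratio of RbHiTn to RbLoTem was 7.35 per exon read, with a 95% interval from 2.19 to 38.5 for counting error only. It was called lower in the fit without a filter, at a log2 fold change of -2.73 and an adjusted p of 0.00296, and in the fits that left out any library but the RbHiTn library without the suffix, at an adjusted p between 0.00472 and 0.0482. HDAC9 was singled out after its values were seen.

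The remaining ARID proteins are DNA-binding or RNA-binding factors outside SWI/SNF, and 2 of 4 rose and 2 fell. In DESeq2, and without the RbHiTn library with the suffix o, the 2 increases were called and 0 decreases were. ARID5A, known in mouse for stabilising Il6 messenger RNA, had an RPKM of 3.92 and 3.61 in RbHiTn and 8.52 and 7.85 in RbLoTem, a 2.16-fold increase (1.11 ± 0.15, adjusted p 3.41e-07). ARID3B, a DNA-binding factor of the ARID3 family, had 1.73 and 1.92 against 3.03 and 3.61 (0.89 ± 0.17, adjusted p 6.99e-05). Both increases held in all 12 alternatives. ARID4A and ARID4B are subunits of the Sin3 deacetylase complex that bind the retinoblastoma protein. ARID4A had 6.81 and 8.40 against 5.71 and 5.56 (-0.41 ± 0.11, adjusted p 0.00346), and ARID4B had 6.83 and 7.09 against 6.16 and 5.67 (-0.23 ± 0.092, adjusted p 0.0396). Without the RbHiTn library with the suffix o the ARID4A call was lost at an adjusted p of 0.117 and a log2 fold change of -0.27, which is less than the main value by more than 1.5 times. The ARID4B call was lost without either RbHiTn library or without the RbLoTem library with the suffix o, at an adjusted p between 0.113 and 0.255.

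Several of these proteins are alternative subunits of the same complex, so the share of a paralog in the summed RPKM of its pair was compared over 7 pairs, which were picked after the values were seen. CHD3 made up 23.7% and 24.6% of CHD3 plus CHD4 in RbHiTn and 12.7% and 13.2% in RbLoTem. ARID1B made up 9.56% and 9.67% of ARID1B plus ARID1A in RbHiTn and 7.59% and 7.99% in RbLoTem. The less abundant paralog of each of these pairs thus held a smaller share in both RbLoTem libraries. EZH1 made up 3.64% and 4.03% of EZH1 plus EZH2 in RbHiTn and 3.31% and 3.02% in RbLoTem, and KMT2C 32.9% and 31.8% of KMT2C plus KMT2D against 31.0% and 26.9%. Among the SWI/SNF subunits, SMARCC1 held 53.6% and 54.4% of its pair against 51.5% and 49.9%, and SMARCD1 26.6% and 28.8% against 29.7% and 31.7%. HDAC2 held 12.4% and 13.3% of HDAC2 plus HDAC1 in RbHiTn and 14.4% and 13.1% in RbLoTem, which overlap. The share did not overlap in 6 of the 7 pairs, with an exact two-sided permutation p of 0.333 in each, the smallest that 2 libraries against 2 allow, and 0.389 after adjustment over the 7 pairs. The HDAC2 share had an exact permutation p of 0.667.

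**Figure D4:**
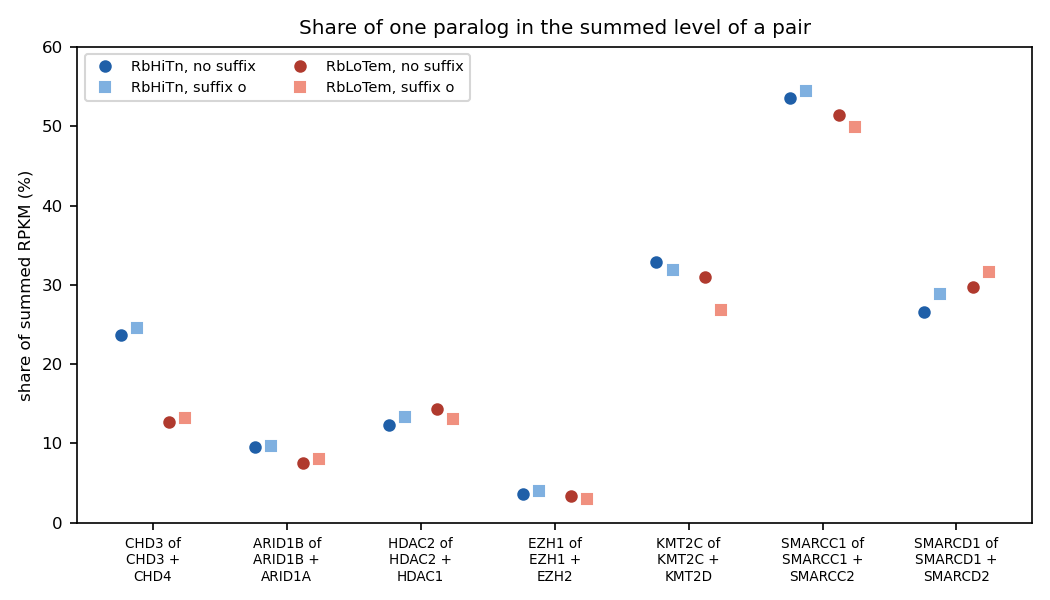
Share of the first-named paralog in the summed RPKM of its pair, in percent, in each of the 4 libraries (blue RbHiTn, red RbLoTem, squares for the suffix o). CHD3 held 23.7% and 24.6% of its pair with CHD4 in RbHiTn and 12.7% and 13.2% in RbLoTem, while the HDAC2 share overlapped between the subsets.

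Genes that work with the members were read from 10 lists of partners, none of them members, which held 167 genes, of which 112 were tested. Of these, 40 were lower and 24 were higher, where all models had 23.6% and 24.3%. The counts of each list are to be read beside these shares, and no list was tested against them. The median log2 fold change of a list ran from -0.25 for the polycomb partners to 0.48 for the other demethylases. Among the polycomb partners, which span accessory subunits of PRC2 and the PRC1 complex that ubiquitinates histone H2A, 8 of 16 were lower and 5 were higher. The largest changes were in PHC1, a PRC1 subunit, at -1.50, and PCGF3, a subunit of a variant PRC1, at 1.39. PCGF3 was scarce, with 20 and 22 reads in RbHiTn and 51 and 64 in RbLoTem (SE 0.27). Besides EED, the PRC2 accessory subunits AEBP2 and JARID2 were higher, by 0.36 and 0.22 on the log2 scale. The PRC2 partners RBBP4, PHF1 and MTF2 were called lower, at -0.35, -1.02 and -0.18, so the PRC2 genes showed no single direction.

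Partners of the H3K4 methyltransferases showed no single direction, with 2 of 6 lower, WDR82 the most at -0.44, and 2 higher, MEN1 the most at 0.31. Other methyltransferases had 5 of 17 lower and 3 higher, from SMYD3 at -1.08 to PRMT1, the main arginine methyltransferase, at 0.26. SMYD3 was scarce, with 35 and 34 reads in RbHiTn and 14 and 20 in RbLoTem (SE 0.32). Other demethylases and their partners had 1 of 3 lower, the CoREST subunit RCOR1 at -0.75, and 2 higher, the hydroxylase MINA the most at 1.46. Partners of the deacetylases had 5 of 17 lower, ING2 the most at -0.46, and 2 higher, the Sin3 subunit SAP30 the most at 1.03. So HDAC1, HDAC2 and SAP30 were higher while RCOR1 and ING2, which serve the same enzymes, were lower.

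Other BAF and PBAF subunits had 4 of 11 lower, BCL7A the most at -0.61, and 3 higher, DPF1 the most at 1.86. DPF1 was scarce, with 11 and 3 reads in RbHiTn and 23 and 30 in RbLoTem (SE 0.41). Subunits of the ISWI, INO80 and SRCAP complexes had 4 of 20 lower and 5 higher, near the 23.6% and 24.3% of all tested models. BAZ2B, a bromodomain partner of ISWI ATPases, changed by -1.53, and BAZ1A, the partner of SMARCA5 in the ACF complex, by 0.89. The DNA methylation accessory genes had 4 of 7 lower, the CXXC zinc finger gene CXXC5 the most at -2.33, and 1 higher, the methyl-CpG binding gene ZBTB38, at 1.22. Both were scarce. CXXC5 had 21 and 14 reads in RbHiTn and 2 and 5 in RbLoTem (SE 0.51), and ZBTB38 had 21 and 18 against 43 and 51 (SE 0.28). All values in the partner lists are log2 fold changes from the same edgeR fit.

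**Figure D5:**
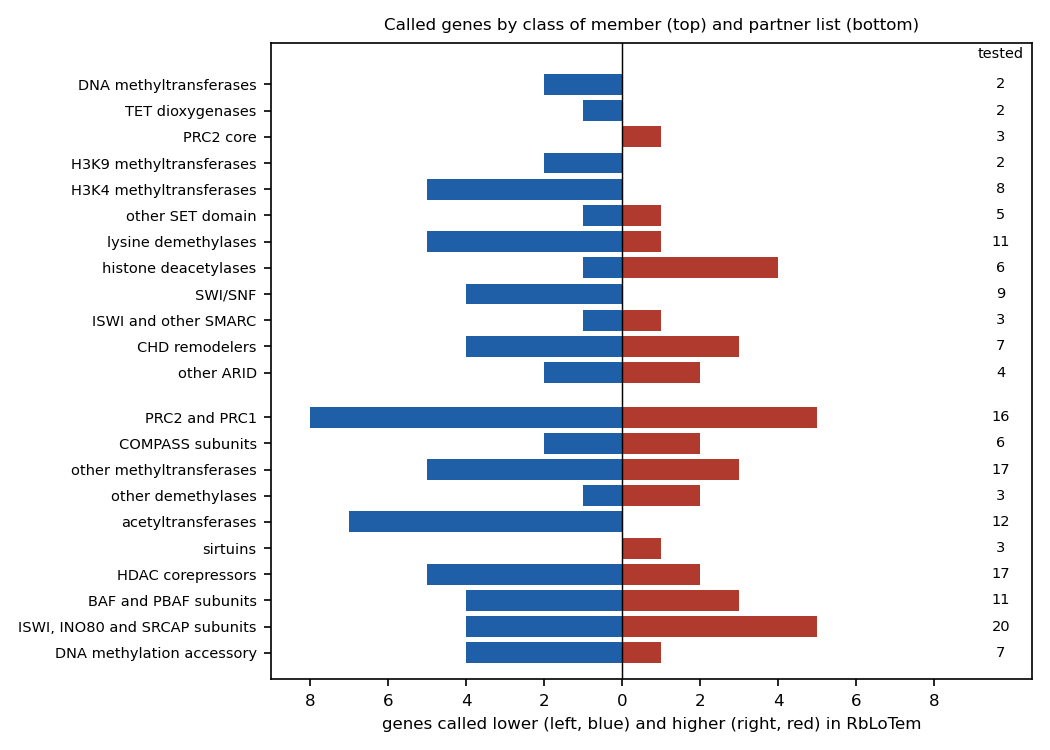
Number of genes called lower (blue, left) and higher (red, right) in RbLoTem in each class of member (top) and each partner list (bottom), with the number tested at the right. Among all 6538 tested models 23.6% were lower and 24.3% were higher. Lower calls outnumbered higher calls in the H3K4 methyltransferases (5 against 0), the lysine demethylases (5 against 1) and the SWI/SNF subunits (4 against 0), and the deacetylases had 4 higher against 1 lower, or 2 against 1 in DESeq2 and without the RbHiTn library that lacks the suffix.

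Markers of other cells moved with the subsets. The 4 B cell markers tested and reported here were all lower in RbLoTem, where they summed to 1.88 and 2.04 of every 1000000 exon reads against 24.2 and 26.1 in RbHiTn, and both tested dendritic and myeloid markers were lower, at 2.11 and 2.55 against 13.8 and 13.7. The B cell genes CD79A, MS4A1 and BLK had 0 reads in RbLoTem. Of 10 tested proliferation genes 6 were lower and 2 were higher, with sums of 6181 and 6226 in RbHiTn and 5523 and 5367 in RbLoTem. Of 5 tested T cell markers 3 were lower and 0 were higher, with sums of 814 and 784 in RbHiTn and 606 and 634 in RbLoTem. These counts stand beside 23.6% lower and 24.3% higher among all tested models. Of 8 T cell markers 6 had reads, LCK the most, and the models of CD3D and CD28 had 0 in all libraries. The model of CD4 had 4 and 1 reads in RbHiTn and 2 and 3 in RbLoTem, although all cells were sorted as CD4+. Few reads on a model therefore do not show a low level of the mouse gene. The part of these cells and of proliferation in the changes of the chromatin genes was not tested.

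Members that were not tested had few reads or none. CHD5, a neuronal CHD protein, had 14 reads in RbHiTn and 9 in RbLoTem, and SMARCD3, a SWI/SNF subunit of heart and muscle, had 12 and 13. Apart from HDAC9, the rest of the members with reads had 6 or fewer over the 4 libraries, as the demethylase KDM4E did. KDM4D, SETD9 and 9 of the antisense RNAs and pseudogenes had 0 reads in all libraries.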

How the data were processed

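The authors deposited, for each of 4 libraries, read counts per gene model (total and unique reads in exons and genes) and RPKM values. Recomputing RPKM from exon reads, exon length and the sum of gene reads gave the deposited RPKM to within 1%. The study's methods name Trimmomatic, TopHat with mm10, htseq-count and DESeq2, but the models carry human symbols and positions, and no source used here gives the aligner, annotation, build or use of strand behind these tables. Reads of paralogs or antisense genes cannot be separated, and 9 tested members had under 97% unique reads.

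Total exon reads were tested over all 6538 models that passed filterByExpr with edgeR 4.0.16 in R 4.3.3 (TMM, quasi-likelihood test, no block, Benjamini-Hochberg adjusted p under 0.05). TMM factors lay between 0.991 and 1.013. Standard errors (SE) were taken as the absolute log2 fold change divided by √F of the test. The script was tested on simulated data. The alternative analyses were a fit on unique reads, a fit of every model with a read, a block on the suffix, scaling by relative log expression or library size, leaving out each library, DESeq2 1.42.0, and limma 3.58.1 with a pseudocount of 0.1 or of 1 added to RPKM before taking log2. Ratios of low counts carry exact 95% intervals. Replicate libraries differed by more than sampling noise (chi-square per degree of freedom 2.06 and 2.07) and were counted separately. Members and lists were chosen with earlier results of these data known, and 1 marker gene of the lists is not reported here. Values in each library are given for members called at 1.5-fold or more, the most abundant of each class and defining enzymes, and for each partner list the largest called increase and decrease.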

Additional observations from a re-analysis of the deposited data

How the results depend on the processing

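Of the 41 called members, 27 were called in all 12 alternative analyses, among them 13 of the 14 that changed by at least 1.5-fold, HDAC4 being the exception. No called member changed direction in any alternative. Leaving out 1 library gave between 8 and 11 members higher and between 23 and 29 lower, and the 8 higher came without the RbHiTn library that lacks the suffix. With limma on log2(RPKM + 1), 8 members were higher. DESeq2 called 992 of all models lower against 1544 in edgeR. A change of at least 1.5-fold, which is stricter by construction, left 5 members higher and 9 lower, and 767 models higher and 802 lower among all tested. With the suffix as a replicate block 11 members were higher and 27 lower. The suffix is the only thing that pairs libraries across the subsets, their deviations did not go together (correlation -0.0148), and the block is given for completeness. Library sizes without TMM factors moved the median log2 fold change of all models to -0.04, and relative log expression factors to -0.003. The cause of these shifts was not tested. The scarcest tested members, TET2, KDM4B and HDAC4, had the widest standard errors, 0.50, 0.34 and 0.24 on the log2 scale.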

Other observations

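The acetyltransferases, which place the marks that the deacetylases remove, were not members of the families above and were read as a partner list. The list also holds BRPF1 and BRPF3, which are subunits of acetyltransferase complexes and not enzymes. Of 12 genes of the list that were tested, 7 were lower in RbLoTem, BRPF3 among them, and 0 were higher in edgeR. Of all tested models 23.6% were lower and 24.3% were higher. The median log2 fold change was -0.25 against -0.01 for all models. The alternative analyses are not given for this list. NCOA2, a coactivator of nuclear receptors, fell from an RPKM of 20.8 and 21.2 to 8.73 and 9.04, a log2 fold change of -1.23 ± 0.071 in edgeR. KAT2A (GCN5), the catalytic subunit of the SAGA complex, fell from 45.3 and 42.8 to 28.7 and 30.2 (-0.57 ± 0.075). CREBBP (CBP), which acetylates lysine 27 of histone H3 at enhancers, fell from 7.11 and 7.23 to 4.70 and 5.15 (-0.53 ± 0.084). None of these overlapped between the subsets, which adds no support to the calls, as stated above for the members. KAT5, KAT7, HAT1, NCOA1 and BRPF1 were not called.

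Of the sirtuins, which are NAD-dependent deacetylases, 3 were tested. SIRT2, known as a tubulin deacetylase, rose from an RPKM of 2.85 and 3.35 to 6.97 and 7.12, a log2 fold change of 1.21 ± 0.13 with an adjusted p of 3.49e-09 in edgeR. SIRT6 and SIRT7 were not called.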
